A study of Mus musculus with 2 samples.

Results

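The cells described here are 721 barcodes, 9.70% of the 7430 kept barcodes of 2 single-cell libraries of cultured mouse neural stem cells, in which mRNAs made for mitosis were split into a high and a low set. Each barcode received a pair of scores from its unique molecular identifiers (UMIs, each 1 captured transcript). Score A was the share of UMIs from Cenpa, Cdc20, Ccnb2, Knstrn, Cdkn3 and Arl6ip1, and score B the share from Top2a, Aspm, Prc1, Cenpf, Cenpe and Nusap1. Members had at least 5000 UMIs, at most 20% mitochondrial UMIs, A in the top 30% and B in the lower 60% of all kept barcodes of both libraries. The working name of these A-high, B-low barcodes is early G1 daughter cells with leftover mitotic mRNA. They were compared with the 892 barcodes in the top 12% of B, called mitotic barcodes here because B is made of G2 and M phase transcripts, and with all 5817 others. Within the others, 3737 barcodes were low in both A and B. These low-low barcodes share the members' limit on B and lie below the limit on A. Their B was also lower, with medians of 0.00975% (young) and 0.00936% (aged) against 0.0344% and 0.0347% in members. The low-low comparison therefore does not isolate A.

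The cells came from the subventricular zone, the germinal layer along the lateral ventricles, of C57BL/6 mice. The young group was 2 months old and the aged group 15 to 18 months, and for each age the tissue of 5 mice was pooled, dissociated and kept in a proliferation medium before the 10x Genomics 3′ v3 library was made. Each age is therefore 1 library of cells kept in culture, and age, culture and library cannot be told apart. The young library held 97774963 UMIs and the aged library 101666604, and 3766 young and 3664 aged barcodes were kept. The libraries shared 2 kept barcode sequences, and 0 members carried a shared one. Because the members were chosen by measured transcripts and there is 1 library per age, every value below is a description with no test. Intervals are exact, at 95%, and cover counting error only.

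A dividing cell makes the mRNAs for spindle assembly, chromosome segregation and cytokinesis mostly in G2, under the B-MYB and FOXM1 transcription factors and the DREAM complex. Many of their promoters carry a CHR element (cell cycle genes homology region) near the start site and CCAAT boxes upstream of it. Chromosomes condense in mitosis and most transcription stops, and each daughter enters G1 with part of the mother's cytoplasmic mRNA, which is then lost by decay and by dilution.

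The promoters of an A pair (Ccnb2, Cdc20) and a B pair (Prc1, Cenpf) are shown because both scores draw on genes of this promoter type, so the scores cannot be told from each other by these letters. Each window runs from 90 bases before to the 10 bases from the start site in RefSeq, build GRCm38.p6. The capitals mark TTTGAA, the core of the CHR, and CCAAT.
Ccnb2, chr9:70421545-70421644, minus strand: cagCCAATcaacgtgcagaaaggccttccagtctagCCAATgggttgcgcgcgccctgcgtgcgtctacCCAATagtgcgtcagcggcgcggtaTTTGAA
Cdc20, chr4:118437334-118437433, minus strand: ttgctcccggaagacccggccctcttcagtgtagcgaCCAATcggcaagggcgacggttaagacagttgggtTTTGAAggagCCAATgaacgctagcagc
Prc1, chr7:80294361-80294460, plus strand: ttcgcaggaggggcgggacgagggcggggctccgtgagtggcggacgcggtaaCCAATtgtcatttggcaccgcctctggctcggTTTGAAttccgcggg
Cenpf, chr1:189688077-189688176, minus strand: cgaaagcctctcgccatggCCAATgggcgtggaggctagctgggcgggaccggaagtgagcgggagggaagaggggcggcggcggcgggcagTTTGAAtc
Searched on both strands of the 300 bases from 250 before to 50 after the start, TTTGAA stood in 4 of 6 A promoters and 4 of 6 B promoters, against 20.2% of the promoters of 27025 genes. CCAAT stood in 5 of 6 of each set, against 41.1% of all promoters. A match is only a match of letters. In the windows shown the marked strings do not overlap, though CCAAT and TTTGAA can share a T elsewhere.

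The scores divided the cycling cells as the plot of A against B shows. Of 2229 barcodes in the top 30% of A, 721 were members, 750 were mitotic barcodes and 758 lay between them. Members had a median of 46 UMIs of the A genes (9 to 123) and 7 of the B genes, and 28 members had 0 UMIs of the B genes. The boundary is not a gap: the lowest member had 0.166921% of its UMIs in A and the highest barcode just outside had 0.166810%, and 132 members lay within 10% of the threshold. On the other edge, the highest B among members was 0.0851% and the lowest B among the high-A barcodes outside was 0.0855%. A class cut from scores in this way is a range of barcodes rather than a separate type.

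**Figure D1:**
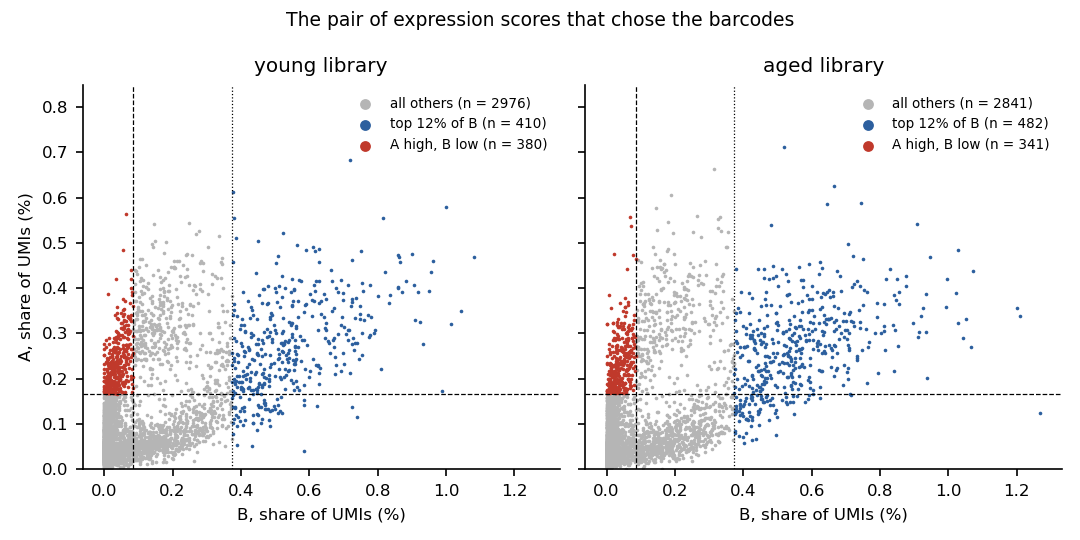
Score A (y axis) against score B (x axis), both as a percent of UMIs, for each kept barcode of the young (left) and aged (right) library. Dashed lines are the limits on A and B for members and the dotted line is the limit of the top 12% of B. The 380 young and 341 aged members fill the upper left corner, at the end of an arc of high-A barcodes that runs back to the mitotic barcodes without a gap.

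Members made up 10.1% of the young library (9.15 to 11.1, 380 of 3766 barcodes) and 9.31% of the aged library (8.39 to 10.3, 341 of 3664), so the intervals overlapped. Mitotic barcodes made up 10.9% of the young library (9.91 to 11.9) and 13.2% of the aged library (12.1 to 14.3). There were thus 0.927 members per mitotic barcode in young and 0.707 in aged cells. No replicate library is there to show how far such a ratio varies between cultures.

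The members had fewer UMIs per barcode than the cells they were compared with. The median member had 19661.5 UMIs in the young library (quartiles 15424 and 23526) and 20822 in the aged library (17296 and 24347). The median mitotic barcode had 31032 UMIs (25740 and 37158) among young and 34304.5 (28037 and 41421) among aged cells. The members' median was therefore 0.634 of the mitotic median in young cells and 0.607 in aged cells, and only 7 of 380 young and 9 of 341 aged members lay above the mitotic median. The members were also shallower than the low-low barcodes, with ratios of 0.846 (young) and 0.857 (aged). Low UMI counts cannot be told apart here from poorer capture. After every barcode was thinned to 5000 UMIs, the median number of detected genes was 2139 and 2148 in young and aged members, 2129 and 2142 in low-low barcodes and 2213 and 2224 in mitotic barcodes. Few members were among the deepest barcodes of their library: 1.58% of young and 1.17% of aged members lay above its 95th percentile of UMIs, against 14.6% and 13.7% of mitotic barcodes. The median mitochondrial share was 9.23% in young and 8.99% in aged members, between the 8.25% and 8.36% of mitotic and the 10.1% and 9.87% of low-low barcodes.

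**Figure D2:**
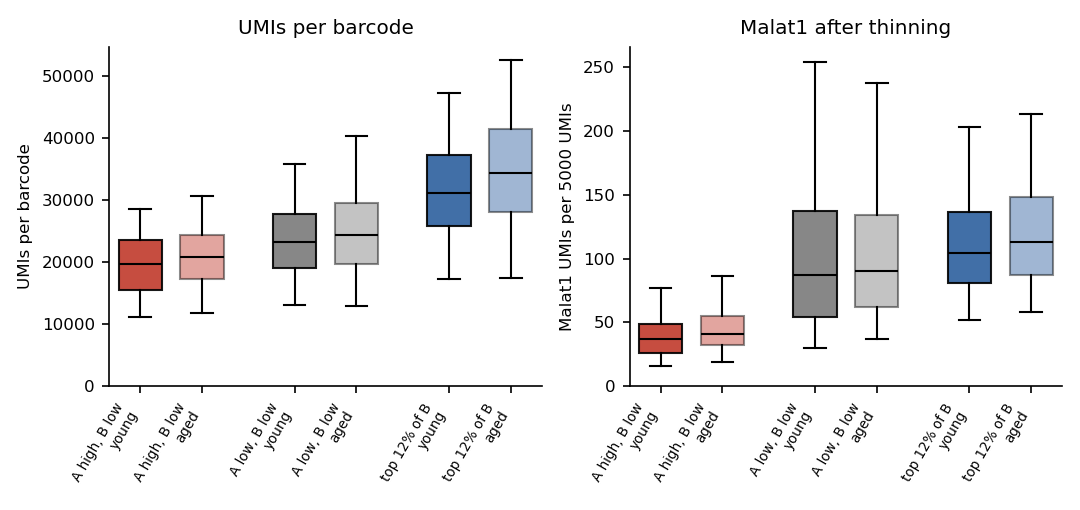
UMIs per barcode (left) and Malat1 UMIs per 5000 UMIs after thinning (right), by class and library. Boxes span the quartiles with the median, and whiskers reach the 5th and 95th percentiles. On the left the members' boxes lie below those of the top 12% of B, and on the right the members' upper quartiles (49 young, 55 aged) lie below the lower quartiles of the low-low barcodes (54 and 62).

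Members carried the progenitor transcripts of the culture. Nes, the progenitor intermediate filament gene, stood at 722 counts per 1000000 UMIs (CPM) in young and 648 in aged members, against 666 and 664 CPM in low-low barcodes. Sox2, a stem cell transcription factor gene, stood at 192 and 216 CPM in members against 221 and 240. Of 19 neural stem and progenitor genes 9 were higher and 6 lower in both libraries, with 0 called. Over all genes compared with low-low barcodes, 38.9% were higher and 41% lower. Of 5 oligodendrocyte precursor markers compared, 2 were higher and 3 lower: Olig2 stood at 603 and 503 CPM against 516 and 417, and Olig1 at 1178 and 895 against 1335 and 906. Of 10 microglia markers 8 had 0 UMIs in members, among them Cx3cr1, Csf1r and Tmem119, which allows up to 0.399 CPM in young and 0.414 CPM in aged members. Cldn5 (endothelium), Mog (oligodendrocytes) and the 4 globin genes listed were at 0 as well. Of 15 neuroblast markers, 3 were abundant enough to compare, and all of these were higher in members than in low-low barcodes in both libraries, with 0 called. Sox11 stood at 349 and 358 CPM against 286 and 292, and Cd24a at 104 and 74.7 against 81.7 and 57.6, while Dcx, which defines neuroblasts, stood at 1.33 and 1.24 CPM. The astrocyte or quiescent stem cell list of 18 genes summed to 2697 and 3431 CPM in members, against 3537 and 4218 in low-low barcodes, so the members were lower in that list in both libraries. The part of these lists in the results below was not tested. These values do not go against the working name, but mRNA counts carry no measure of DNA content or of a completed division.

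The 6 A genes differed among themselves in how close the members came to the mitotic level. Ccnb2, a B-type cyclin that activates Cdk1, stood at 178 CPM in young and 155 CPM in aged members, against 179 and 158 in mitotic and 27.1 and 20.5 in low-low barcodes. Members and mitotic barcodes thus held nearly the same share of Ccnb2, a gene the rule chose them by. Arl6ip1, which encodes a membrane protein that shapes the endoplasmic reticulum, was even higher in members (1347 and 1404 CPM) than in mitotic barcodes (1172 and 1150). Knstrn, a spindle and kinetochore protein gene, stood at 188 and 178 CPM in members against 226 and 238 in mitotic barcodes. Cdkn3, which encodes a phosphatase of cyclin-dependent kinases, stood at 51.7 and 52.2 CPM against 69.2 and 65.3. Cenpa, the histone H3 variant that marks centromeres, was at 403 and 406 CPM in members, 635 and 652 in mitotic and 47.6 and 39.0 in low-low barcodes. Cdc20, the activator of the anaphase-promoting complex (APC/C), stood furthest below the mitotic level, at 147 and 143 CPM in members against 465 and 426 in mitotic barcodes. These values chose the members, and the order among the 6 genes is partly fixed by the choice as well. Arl6ip1 makes up most of A, and B, which is limited in members, rose together with Cdc20 and Cenpa within them.

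Of the 6 B genes, 5 were higher in members than in low-low barcodes in both libraries, and 4 were at least 2-fold higher. Cenpf, a kinetochore protein gene, was at 174 and 165 CPM in members, 1671 and 1695 in mitotic and 34.4 and 28.9 in low-low barcodes. Top2a, the topoisomerase that untangles sister chromatids, was at 78.2 and 97.4 CPM in members and 102 and 92.7 in low-low barcodes, against 1522 and 1564 in mitotic barcodes. Prc1, the bundler of the central spindle, stood at 35.8 and 50.8 CPM against 888 and 917 in mitotic barcodes, and Cenpe, a kinetochore kinesin gene, at 29.8 and 24.3 against 639 and 652.

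To place other mitotic transcripts on 1 scale, the excess over low-low barcodes in members was divided by the excess in mitotic barcodes. A value of 100% means a CPM as high as in mitotic barcodes and 0% one as low as in low-low barcodes. The measure was computed for 189 genes that were at least 2-fold above low-low barcodes and at 50 CPM or more in mitotic barcodes, and 177 of them are not in the rule. Over these 177 the median was 6.41% in the young library (quartiles -1.54 and 24.2) and 7.13% in the aged one (-1.15 and 23.9). Most mitotic transcripts were therefore near the low-low level in members: 97 of 177 kept at most 10% in both libraries and 45 were below the low-low barcodes in both. Another 21 kept at least 50% in both. Members are limited on B and mitotic barcodes are high in it, so low values of transcripts that follow B are partly fixed by the choice. CPM is relative to each class's total UMIs, so a share that held its level in cells with fewer UMIs is a lower number of molecules per barcode.

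The genes that kept at least 50% of their excess were not concentrated in the 2 lists given here. They were 3 of 23 kinesin and spindle genes and 2 of 13 kinetochore genes with an excess. Both shares are near the 21 of 177 over all genes outside the rule with an excess. Those named here fall outside the rule for named genes where not listed there and were then picked after their values were seen. H2afz, the histone variant H2A.Z, kept 94.5% of its excess in young and 97.3% in aged cells, at 3132 and 3074 CPM in members against 3223 and 3118 in mitotic barcodes. Stmn1, which encodes the microtubule destabilizer stathmin, kept 89.9% and 92.8%. Ube2s, the chain-elongating ubiquitin enzyme of the APC/C, kept 71.1% and 78.7%, Tacc3, a spindle protein gene, 67.3% and 77.3%, and the tubulin gene Tubb4b 68.9% and 63.4%. Related genes kept less, with 12.6% and 13.3% for the APC/C ubiquitin enzyme gene Ube2c and 37.2% and 31.7% for the tubulin gene Tubb5. Cdca3, which is linked to mitotic entry, kept 62.7% and 62.9%, and Lmnb1, the lamin B1 gene, 55.7% and 60.6%. Cdca8 (borealin) and Racgap1 (of the centralspindlin complex) stood in between, at 42.9% and 43.4%, and 42.4% and 44.4%.

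Most mitotic kinases and cyclins kept little, about as often as all the transcripts with a mitotic excess outside the rule. Of 18 listed, 14 had a mitotic excess. Of these, 8 kept at most 10% in both libraries, against 97 of 177 genes outside the rule. Only 1, Pbk, kept at least 50% (54.2% and 61.5%), against 21 of 177. Plk1, Polo-like kinase 1, kept 6.70% and 7.32%, with 25.7 and 25.3 CPM in members against 270 and 278 in mitotic barcodes. Cdk1, the kinase that drives mitotic entry, kept 3.28% and 5.43%. Aurkb, the kinase of the chromosomal passenger complex, was below the low-low level, at 3.99 and 5.94 CPM in members, 13.1 and 10.2 in low-low and 174 and 158 in mitotic barcodes. Aurka, the centrosomal Aurora kinase, stood at 5.45 and 8.42 CPM against 175 and 157 in mitotic barcodes. Ccnf, the cyclin F gene, stood at 2.26 and 1.38 CPM against 97.2 and 101, and Kpna2, a nuclear import receptor gene, at 18.0 and 20.9 against 242 and 235. Ccnb1, the other mitotic B cyclin, kept 20.2% in both libraries, where Ccnb2 kept 99.3% and 97.6%. Ccnb2 is a gene of A, so its high value is partly fixed by the choice of members. Ccnb1 is not in the rule, and it was 4.31-fold lower in young members than in mitotic barcodes (interval 4.06 to 4.64). In aged members it was 4.37-fold lower (4.11 to 4.70). The rule limits B in members and mitotic barcodes are chosen by high B, and within young members Ccnb1 rose with B. The low value of Ccnb1 is therefore partly fixed by the choice as well.

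**Figure D3:**
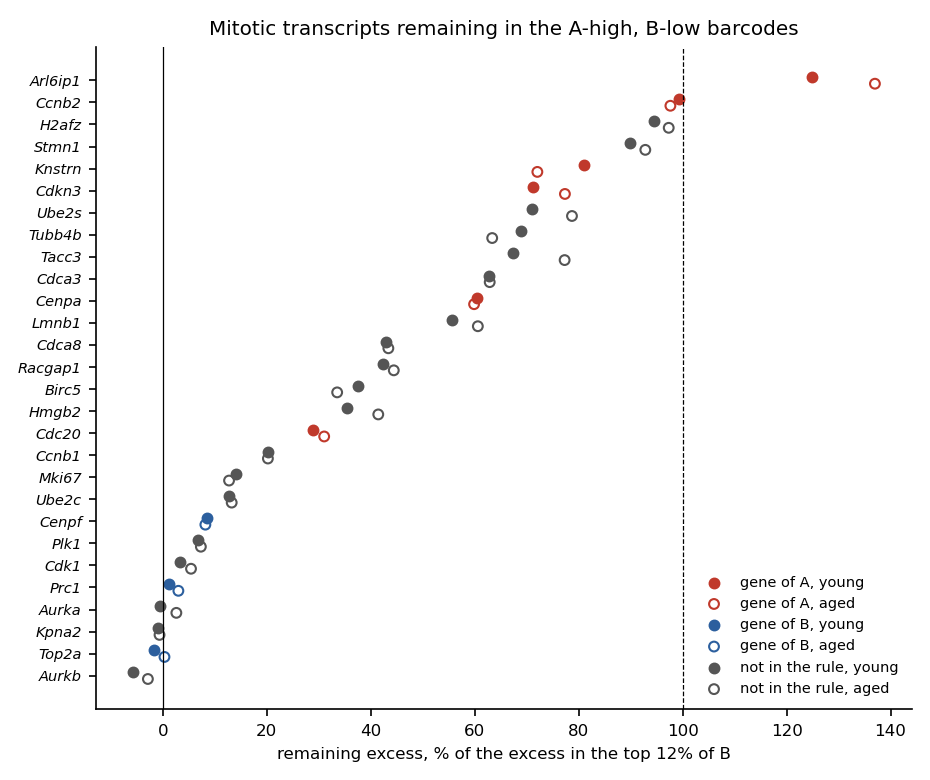
Share of the mitotic excess kept in members (x axis, percent of the excess of mitotic over low-low barcodes) for 28 transcripts in the young (filled) and aged (open) library. The A genes are red, the B genes blue and genes outside the rule grey. Ccnb2, H2afz and Stmn1 lie near 100%, Ccnb1 near 20% and Plk1, Cdk1, Aurka and Aurkb near 0%, and young and aged points lie close together.

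Both ends of this order held the promoter letters shown above. TTTGAA stood in 7 of 15 matched promoters of genes that kept at least 50% and in 46 of 82 of genes that kept at most 10%, and CCAAT in 9 of 15 and 61 of 82. Of the 21 and 97 genes, 15 and 82 were found in the RefSeq promoter table.

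The members varied among themselves in how much of several mitotic transcripts they held. They were split into 3 parts of rising B, all below the limit on B that the rule sets. In the young library Cdc20 stood at 49.4, 136 and 269 CPM from the lowest to the highest part, and in the aged library at 54.0, 116 and 234. Cenpa stood at 246, 430 and 543 CPM in young and 298, 415 and 482 in aged members. Ccnb1 stood at 69.7, 137 and 200 CPM in young members, and Plk1 at 9.16, 21.1 and 49.5. Even the part of highest B was below the mitotic barcodes, where Ccnb1 stood at 580 CPM and Plk1 at 270. Arl6ip1 did not follow this order, at 1413, 1253 and 1388 CPM in young and 1468, 1351 and 1396 in aged members, and Ccnb2 followed it weakly, at 145, 182 and 208 CPM in young members. Arl6ip1 was the most abundant of the 6 genes in each part. It made up more of A in the part of lowest B than in the other parts, in both libraries. The median UMI count was 19158, 20327.5 and 19057.5 in the 3 young parts and 19680, 20926 and 21350 in the aged parts. By A, the 40 young and 35 aged members above the pooled 90th percentile had medians of 16052.5 and 17269 UMIs, and those at or below the 80th percentile 20611 and 21119.5, so the highest A shares were in shallow barcodes.

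Because a share of few UMIs varies by sampling, the UMIs of each barcode were divided at random into 2 equal sets, and members were chosen on the first set and measured on the second. The 386 young barcodes chosen this way had 2392 CPM of the A genes in the first set and 2256 in the second, and the 350 aged ones 2371 and 2229. In the second set of UMIs of low-low barcodes the A genes stood at 613 CPM in young and 592 in aged cells. The A level of the chosen barcodes was thus close in the 2 sets. Both sets come from the same barcodes and the same A genes, so this bears on the sampling of UMIs only and adds no support for the class. Single barcodes were less stable: 64.5% of young and 64.0% of aged ones were chosen again on the second set.

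Against all other barcodes, 8170 genes were compared, and a gene was called when it was at least 2-fold apart the same way in both libraries. Of these 10 were higher in members (0.122%) and 110 lower (1.35%), and 5 of the 10 higher ones were genes of A. Among genes from 50 CPM outside the rule, Tacc3 led, at 115 and 129 CPM in members against 47.0 and 47.8 in the others. Cdca3 (204 and 195 against 98.0 and 88.9) was called as well. The other called genes were the phosphatase gene Cdc25c, the tubulin gene Tuba1c and Cdc42ep2, all below 50 CPM in members and named after their values were seen. Next in size but under the 2-fold limit stood Tubb4b (699 and 622 CPM against 357 and 321), Ube2s (936 and 891 against 544 and 471) and the noncoding RNA Lockd (68.4 and 78.6 against 37.0 and 42.4). The centralspindlin gene Racgap1, Cdca8, the dynein regulator gene Nde1 and the Ran GTPase activator gene Rangap1 were also among the 12 highest without passing the limit, as was Hist1h2bc, a histone H2B gene, at 156 and 103 CPM against 83.3 and 55.5. The lowest were mostly replication-dependent histones. Hist1h1b, a linker histone gene, stood at 39.2 and 37.1 CPM in members against 427 and 404 in the others, and Hist1h2ap, an H2A gene, at 8.65 and 13.3 against 97.4 and 152.

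Against mitotic barcodes, 8221 genes were compared, with 18 higher in members (0.219%) and 329 lower (4%). The lists of cell division genes stood lower by large factors, in a contrast of classes that B itself separates. Of 26 kinesin and spindle genes 22 were called lower (median log2 ratio -2.72 young, -2.92 aged), of 18 mitotic kinases and cyclins 15 (-2.60 and -2.67), and of 17 spindle checkpoint and anaphase genes 12 (-1.98 and -2.27). Kinetochore genes were called lower in 12 of 20, condensin and chromosome compaction genes in 8 of 11, and cytokinesis genes in 9 of 13. Over all 8221 genes the median was 0.00 in both libraries. Sgo1 and Sgo2a, which protect sister chromatid cohesion, stood at 3.46 and 4.83 CPM and at 6.52 and 4.28 CPM in members, against 97.2 and 102 and 209 and 210 in mitotic barcodes. Kif20b, a kinesin gene of cytokinesis, stood at 9.04 and 8.29 CPM against 251 and 255, and Anln, the anillin gene of the contractile ring, at 4.66 and 5.94 against 147 and 157. Against low-low barcodes 8136 genes were compared, with 66 higher in members (0.811%) and 46 lower (0.565%). Of the 26 kinesin and spindle genes 17 reached the 10 CPM minimum, and 12 were called higher in members. Of the 18 mitotic kinases and cyclins 11 reached it, and 5 were called higher. A gene low in low-low barcodes reaches this minimum only where members are high, so these shares of calls are partly fixed by the minimum. The sums that follow take in all listed genes. The kinesin and spindle genes summed to 2732 and 2674 CPM in members, 1138 and 1064 in low-low and 6608 and 6603 in mitotic barcodes. The mitotic kinases and cyclins summed to 828 and 826 CPM in members, 371 and 327 in low-low and 3849 and 3789 in mitotic barcodes, so members lay between both classes.

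Cenpa is high in members by the rule, and the genes that load its protein are not in the rule. Vertebrate cells deposit new CENP-A in early G1 with the chaperone HJURP. Hjurp stood at 35.1 and 36.9 CPM in members, 58.1 and 58.7 in low-low and 239 and 283 in mitotic barcodes. Of the 6 genes of the CENP-A deposition list, 4 were called lower than in mitotic barcodes and 0 higher, against 4% and 0.219% of all genes. B itself separates these classes, so that count is partly fixed by the choice. Against low-low barcodes 5 of the genes were compared and 0 were called. There 2 were higher and 3 lower in both libraries, against 38.9% and 41% of all genes.

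Replication-dependent histone transcripts stood low in members. Of 12 replication-dependent histone genes compared, 9 were called lower than in mitotic barcodes (median log2 ratio -2.34 young, -2.22 aged), and of 11, 6 were called lower than in low-low barcodes (-1.22 and -1.29). Hist1h1b stood at 39.2 and 37.1 CPM in members, 172 and 132 in low-low and 326 and 240 in mitotic barcodes. Hist1h2bc went the other way, at 156 and 103 CPM in members, 96.5 and 61.2 in low-low and 46.8 and 31.2 in mitotic barcodes, and it led the 12 highest genes against the mitotic barcodes. In thinned barcodes the histone list had a mean of 1.81 UMIs in young and 1.71 in aged members, 2.83 and 2.46 in low-low and 5.86 and 4.78 in mitotic barcodes, while the median was 1 in all of these classes, so the means of the other classes rest on barcodes with many histone UMIs in the upper part of each class. The 3′ kit captures polyadenylated RNA, and most replication-dependent histone mRNAs lack a poly(A) tail, so these counts are a partial view.

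The licensing and G1/S list, whose proteins prepare origins for replication, lay slightly above the mitotic barcodes (median log2 ratio 0.27 young, 0.31 aged, 2 of 20 called higher and 2 lower). It lay below the low-low barcodes (-0.41 and -0.32). There 20 of 22 genes were lower in both libraries, against 41% of all genes, and 0 were called. Thinned members had a median of 3 UMIs of the licensing list in both libraries, against 4 in young and 3 in aged low-low barcodes. The upper quartile was 7 in members of both libraries and 11 and 10 in low-low barcodes. The lower level thus lay mostly in the upper part of the low-low barcodes, and the typical barcodes differed little. Cdt1, the licensing factor, stood at 26.2 and 23.8 CPM in members, 8.87 and 7.75 in mitotic and 33.5 and 28.8 in low-low barcodes. Cdc6, its partner, stood at 11.2 and 10.8 CPM against 1.93 and 1.97 in mitotic and 21.8 and 19.99 in low-low barcodes. Ccne2, the cyclin E2 gene that rises at the G1/S boundary, was low in members, at 7.71 and 10.4 CPM against 25.4 and 20.2 in low-low barcodes. The DNA synthesis list was mixed against low-low barcodes, with 7 of 22 genes higher and 13 lower in both libraries (-0.27 and -0.09, 1 called lower). Over all genes 38.9% were higher and 41% lower. Thinned members had a median of 6 UMIs of this list in both libraries against 5 and 4 in low-low barcodes. Pcna, the sliding clamp gene, stood at 121 and 115 CPM in members, 144 and 118 in low-low and 183 and 181 in mitotic barcodes.

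Among G1 regulators the D cyclins, which couple growth signals to the cell cycle, differed from each other. Ccnd1 stood at 1953 and 1915 CPM in members, 1625 and 1572 in mitotic and 2022 and 1943 in low-low barcodes, so members were close to the low-low level. Ccnd2 stood at 1122 and 891 CPM in members, 1039 and 852 in mitotic and 1940 and 1503 in low-low barcodes, so members were close to the mitotic level. Low-low barcodes held 1.73-fold more Ccnd2 than members in the young library (1.69 to 1.77) and 1.69-fold more in the aged one (1.64 to 1.73). Cdkn1a, the p21 inhibitor gene, was lowest in members, at 251 and 264 CPM against 506 and 469 in mitotic and 390 and 380 in low-low barcodes. Cdkn1b, the p27 inhibitor gene, stood at 59.3 and 63.3 CPM in members, 127 and 130 in mitotic and 50.8 and 61.9 in low-low barcodes. Cdkn2d, the p19 INK4d inhibitor gene, was at 17.8 and 18.9 CPM in members, 196 and 184 in mitotic and 29.2 and 26.8 in low-low barcodes. Of 14 genes of the G1 list, 3 were called lower than in mitotic barcodes and 0 higher.

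The division lists stood apart from the lists of growth and metabolism, which differed by small amounts. All 24 oxidative phosphorylation genes were above the mitotic level in both libraries (median log2 ratio 0.20 and 0.22), against 41.5% of all genes, and 23 of 24 were below the low-low level (-0.13 and -0.14), against 41% of all genes. Of 21 ribosome biogenesis genes, 19 were above the mitotic level in both (0.24 and 0.16) and 19 above the low-low level (0.19 and 0.24), against 38.9% of all genes. Splicing factor genes were above the low-low level in 18 of 20 (0.27 and 0.28) and below the mitotic level in 13 of 20 (-0.06 and -0.05). None of these genes was called in these comparisons. Ran, the GTPase of nuclear transport, stood at 1501 and 1417 CPM in members and 1104 and 1025 in low-low barcodes. Mybl2, the B-MYB gene, stood at 4.92 and 6.90 CPM in members against 11.9 and 11.8 in mitotic barcodes. Foxm1 lay between the classes, at 21.7 and 26.5 CPM in members, 88.8 and 86.7 in mitotic and 11.1 and 10.7 in low-low barcodes.

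**Figure D4:**
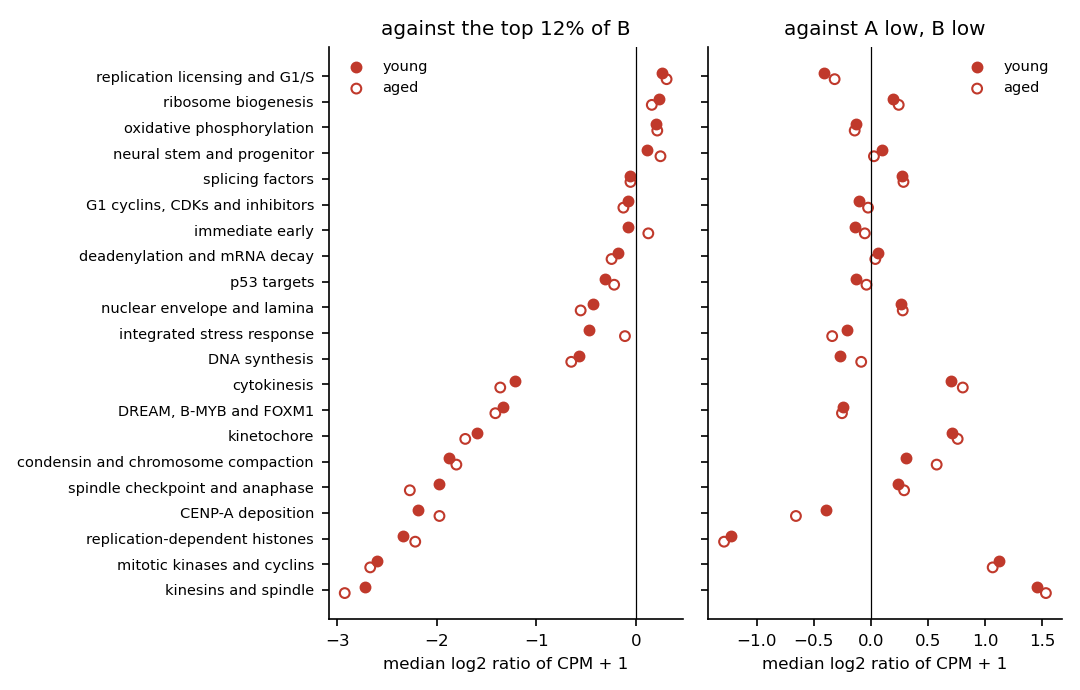
Median log2 ratio of CPM + 1 of members against the top 12% of B (left) and against low-low barcodes (right) for 21 gene lists, in the young (filled) and aged (open) library. The division lists lie between about -1.2 and -2.9 on the left, and on the right the kinesin and the kinase lists lie furthest above 0 and the replication-dependent histones furthest below.

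An abundant noncoding RNA outside the rule stood much lower in members than in the mitotic, the low-low and the pooled other barcodes. Malat1 (chr19:5795690-5802672, minus strand, a long noncoding RNA that stays in the nucleus) was singled out after its values were seen. It stood at 7998 CPM in young and 9284 in aged members, 21065 and 22245 in low-low, and 22329 and 23792 in mitotic barcodes. The low-low level was 2.63-fold that of members in the young library (2.61 to 2.66) and 2.40-fold in the aged one (2.38 to 2.42). In thinned barcodes the median was 37 UMIs in young and 41 in aged members, 87 and 90 in low-low and 104 and 113 in mitotic barcodes. Only 2.63% of young and 4.11% of aged members lay above the low-low median. The 758 high-A barcodes between members and mitotic barcodes were not summed on their own. Many young ones among them held as few thinned Malat1 UMIs as members, such as 19, while some held more, such as 188. Low Malat1 is therefore not shown to be particular to members. At matched depth, 15000 to 25000 UMIs per barcode, Malat1 stood at 7696 and 8904 CPM in members, 21419 and 20668 in low-low and 24719 and 28416 in mitotic barcodes. Malat1 was as low in barcodes chosen on the first set of UMIs and measured on the second, at 8144 CPM in young and 9447 in aged members.

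Other nuclear noncoding RNAs had smaller differences or went the other way. Kcnq1ot1 stood at 224 and 232 CPM in members against 192 and 216 in low-low barcodes. Pvt1 stood at 40.4 and 44.5 CPM against 54.8 and 55.4, and Neat1 was too low to compare, at 4.92 and 4.70 CPM. These genes were chosen after Malat1 had been seen, and Tug1 and Rian did not match a symbol of the files.

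Transcripts of very long genes were low in members too. By the length of the gene in GENCODE vM21 on GRCm38, introns included, the median log2 ratio against low-low barcodes was 0.01 in both libraries for genes up to 10 kb (n = 1889) and -0.38 in both for genes over 300 kb (n = 212). Of the 212 long genes 174 (82.1%) were lower in members in both libraries, and 15 (7.08%) were called lower against 0.565% of all genes. For 100 to 300 kb the median was -0.09 in young and -0.12 in aged cells. Against mitotic barcodes the genes over 300 kb had medians of -0.45 and -0.46. Npas3 (chr12:53248677-54072175, plus strand), a neural transcription factor gene of 823 kb, stood at 23.9 and 32.3 CPM in members, 151 and 172 in low-low and 119 and 153 in mitotic barcodes. Nlgn1 (906 kb), which encodes a synaptic adhesion protein, stood at 12.1 and 12 CPM in members, 46.6 and 52.1 in low-low and 55.4 and 55.6 in mitotic barcodes. Adgrb3 (762 kb) stood at 23.4 and 25.4 CPM against 53.4 and 57.3 in low-low barcodes. Slc4a4 (353 kb), a bicarbonate transporter gene, was as low in mitotic barcodes (73.7 and 66.7 CPM) as in members (74.8 and 64.8), against 160 and 139 in low-low barcodes. Thinned members had a median of 47 UMIs from genes over 300 kb in both libraries, and low-low barcodes 59 and 60. Within members, Npas3 was highest in the part of lowest B, at 39.0 CPM against 17.5 and 15.0 in the other parts of the young library, and 43.9 CPM against 22.1 and 31.5 in the aged one. Npas3 is among the named genes, and the split by length and the other long genes were chosen after values had been seen.

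Between the ages, members differed in few genes. Of 8165 genes, 19 had at least 2-fold more CPM in aged members (0.233%) and 15 lower (0.184%), against 17 (0.205%) and 14 (0.169%) of 8308 genes in mitotic barcodes. None of the 6 A genes and none of the 6 B genes was among them. Pttg1 (chr11:43420250-43426251, minus strand), the gene of securin, which holds back separase until the APC/C destroys it, was lowest relative to the young library. It stood at 194 CPM in young and 42.8 in aged members, 4.45-fold apart (4.002 to 5.13). In mitotic barcodes it stood at 168 and 31.0 CPM, 5.29-fold apart (4.93 to 5.98), and in low-low barcodes at 49.2 and 35.4, 1.38-fold apart (1.30 to 1.48). The young library thus had a high Pttg1 level in its members and mitotic barcodes that the aged library lacked, and the difference between classes was not tested. Across the 3 parts of rising B, Pttg1 stood at 160, 186 and 241 CPM in young members and at 41.7, 36.2 and 49.1 in aged ones.

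**Figure D5:**
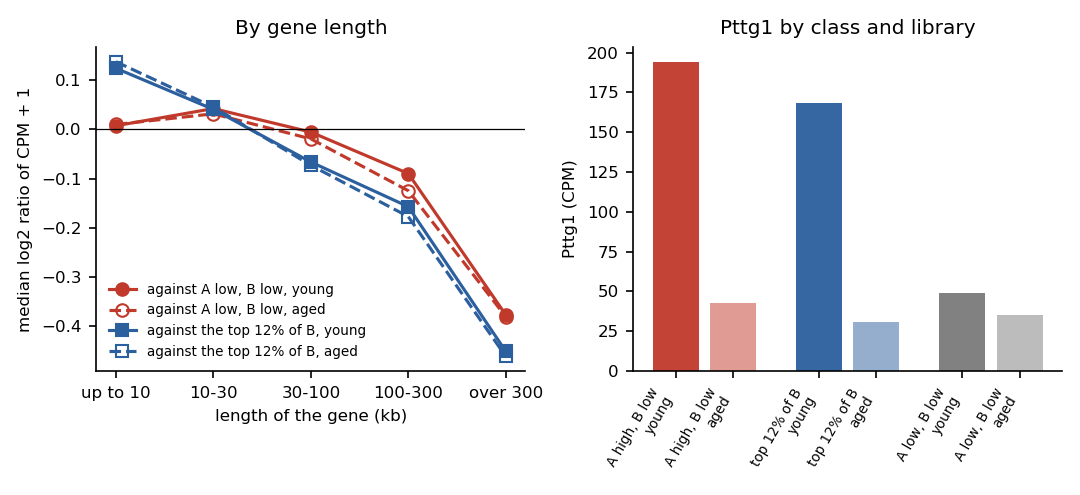
Left, median log2 ratio of CPM + 1 of members against low-low barcodes (circles) and against the top 12% of B (squares) by length of the gene, in the young (solid) and aged (dashed) library. Right, Pttg1 in CPM by class and library: the young members (194 CPM) and young mitotic barcodes (168 CPM) stand above all others, and genes over 300 kb lie lowest on the left.

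Several other age differences of members stood in mitotic barcodes too. Wdfy1, an endosomal protein gene, stood at 12.1 CPM in young and 55.2 in aged members and at 11.4 and 53.5 in mitotic barcodes. Mef2c, a transcription factor gene, stood at 40.3 and 94.5 CPM in members and 58.3 and 155 in mitotic barcodes. Pdlim4, an actin-associated protein gene, differed in members (27.5 and 51.2 CPM) and hardly in mitotic (19.3 and 20.6) or low-low barcodes (73.0 and 75.5), a contrast between classes that was not tested. Lower in aged members were Anxa3 (2.19-fold, 1.95 to 2.51), at 107 and 48.5 CPM in members and 74.2 and 26.3 in mitotic barcodes, and Cdkn2a (1.86-fold, 1.70 to 2.04), at 185 and 99.0 CPM and at 168 and 103. Immediate early genes, which respond to signals within minutes, were lower in aged members in 10 of 12 (median log2 ratio -0.58), against 49.8% of all genes, with Egr1 at 241 CPM in young and 146 in aged members. Integrated stress response genes were higher in 9 of 10 (0.39), oxidative phosphorylation genes in 22 of 24 (0.14) and astrocyte or quiescent stem cell markers in 11 of 13 (0.24), against 50.2% of all genes. The p53 target genes were lower in 12 of 14 (-0.21). The summed CPM of each of these lists moved the same way from young to aged in mitotic and in low-low barcodes. Immediate early genes summed to 1198 and 934 CPM in mitotic and 1272 and 960 in low-low barcodes, and oxidative phosphorylation genes to 12659 and 13826 and to 15978 and 17724. The smallest shift was in stress response genes of mitotic barcodes (1083 and 1099 CPM). These list shifts were thus not particular to members. The median over all 8165 genes was 0.00. The immediate early list may respond to handling, and its part in the age difference was not tested.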

How the data were processed

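Raw UMI counts were used as deposited by the authors, who ran Cell Ranger 3.0.2 on mm10, per the submitters' processing notes. No source used here gives the counting annotation. Gene symbols were matched by identifier (27645 of 27998 found in a reference table).

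Barcodes were kept from 5000 UMIs and up to 20% mitochondrial UMIs (13 genes), and no doublet caller was run. UMIs were summed per class within a library and scaled to CPM. A gene entered a comparison from 10 CPM in either class in both libraries, and log2 ratios were taken after adding 1 CPM. Calls need a 2-fold ratio the same way in both libraries, or between the 2 libraries for age. Printed folds include the added 1, and their intervals (exact conditional binomial, 95%) are of the counts without it. Shares have Clopper-Pearson intervals. Fewer cells of a kind and less RNA per cell are not separable in sums. Counts of 0 were read as allowing up to 3.

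Python 3.11.15, numpy 2.4.6, pandas 2.3.3, scipy 1.17.1 and matplotlib 3.10.9 were used. In counts simulated for members against others (8170 genes), 99.5% of genes changed 3-fold were called, 0% of those changed 1.5-fold and 0 unchanged genes. The simulated counts held counting noise only, so they cannot show how often variation between cells or cultures leads to a call.

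Genes named are the 12 highest and 12 lowest of each comparison by the smaller of the library ratios, from 50 CPM, leaving out the rule's 12 genes, mitochondrial, ribosomal protein and pseudogenes and Gm or Rik models, plus up to 4 per list and a set of cell cycle genes. Others were named after their values were seen. A gene that this rule picks is not reported here. The members and all gene lists were chosen with earlier results of these data known. Alternatives covered the depth, mitochondrial, A and B limits, gene weights, the CPM minimum, the added constant, halved UMIs, protein-coding genes only and a depth window.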

Additional observations from a re-analysis of the deposited data

Results flagged for a closer look

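Some barcodes outside the depth and mitochondrial limits also passed the limits on A and B. In the young library 150 of the 1385 barcodes left out (10.8%, 9.24 to 12.6) did so, and in the aged library 101 of 1067 (9.47%, 7.78 to 11.4). They are data that no comparison above uses, and only their number was compared. Of the barcodes left out, 1315 young and 1027 aged ones had fewer than 5000 UMIs.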

How the results depend on the processing

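Under 18 alternatives, of which the protein-coding genes alone and the depth window of 15000 to 25000 UMIs were chosen after seeing the data, 1822 of 1848 list medians moved by less than the rule allows. The limits on A and B set the number of members by construction. Their share was 4.09% of young and 3.79% of aged barcodes with A in the top 20%, 16.0% and 15.9% with the top 40%, 6.48% and 5.57% with B in the lower 50%, 14.1% and 12.7% with the lower 70%, and 8.50% and 7.10% with equal weights for the genes of each score. The ratio of median UMIs of members to mitotic barcodes was 0.559 in the young library with A in the top 20%, and 0.902 and 0.923 within the depth window, which sets depth by construction. Genes higher than in the other barcodes numbered 17 with A in the top 20% and 19 with B in the lower 70%. With a minimum of 50 CPM, which compares fewer genes, 24 were lower than in the others, 3 higher and 158 lower than in mitotic barcodes, 43 higher and 10 lower than in low-low barcodes, and 4 higher and 2 lower in aged than in young members. The medians against the others then changed sign for mitotic kinases and cyclins (0.0177), CENP-A deposition (0.0664) and condensin (0.286). With no minimum, 37 genes were higher than in mitotic barcodes, 81 lower than in low-low barcodes, and 77 higher and 53 lower in aged members. With 5 CPM added before the logarithm these numbers were 11, 21, 10 and 7. Within the depth window, 92 genes were higher than in mitotic barcodes and 29 lower in aged members. Genes lower than in low-low barcodes numbered 72 at a mitochondrial limit of 10%, 23 with A in the top 40% and 71 with B in the lower 70%. Aged members had 36 genes higher and 30 lower with A in the top 20%, and 29 lower when classes came from 1 set of UMIs and values from the other. The cause was not tested where none is named. Over all alternatives Malat1 was lower in members than in low-low barcodes by log2 ratios from -1.44 to -1.08, genes over 300 kb had medians from -0.46 to -0.23, and aged members were lower in Pttg1 by ratios from -2.58 to -2.03.

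No paired analysis was possible because each age has 1 library. With 1 library per age, differences between cultures, mice and libraries cannot be told from age, and the classes rest on few UMIs of the scored genes per barcode.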
